A study of Rattus norvegicus with 12 samples.

Results

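Voltage-gated sodium channel genes were followed across rat sciatic nerve, dorsal root ganglia (DRG) and dorsal spinal cord on 12 one-colour Agilent arrays. The list held 9 genes: the pore-forming subunits Scn1a, Scn3a, Scn7a, Scn8a, Scn9a, Scn10a and Scn11a, and the accessory subunits Scn2b and Scn4b. Members were the probes whose RefSeq accession in the scanner output belongs to one of these genes in the RefSeq rat annotation. A total of 8 genes had a matched probe, 1 each, among 30367 probes for RNAs and 15159 named genes. Scn7a had no matched probe and is only named here.

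Each array carried pooled RNA from 1 tissue and 1 side of 3 female rats aged 8 weeks, so each of the 12 groups had 1 array. All rats received 50 µg of the myelin basic protein peptide MBP84-104, in 5 µL of phosphate-buffered saline (PBS), in the left sciatic nerve. Athymic nude rats (rnu-/-, which lack T cells) were taken at day 7 and wild-type Sprague-Dawley rats at day 12. The study's text instead gives heterozygous rnu+/- controls, 1 time for both rat types and other numbers of rats. Rat type, day and, for DRG and cord, array slide cannot be told apart.

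In each rat type the injected side was the left sciatic nerve, the left lumbar DRG and the left dorsal cord at the lumbar enlargement. The comparison tissues were the right nerve, given PBS alone, the right DRG, and left dorsal cord from above the lumbar enlargement. The cord comparison therefore sets 1 spinal level against another. No array came from uninjected rats.

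Voltage-gated sodium channels open on depolarization and carry the inward current of the action potential. Each pore-forming alpha subunit can assemble with beta subunits, which alter gating and attach the channel to adhesion molecules and the cytoskeleton. Sensory neurons keep their cell bodies, and most of their mRNA, in the DRG, while the sciatic nerve holds their axons together with Schwann cells, fibroblasts and immune cells. In these bulk samples, fewer cells of a type and less RNA per cell cannot be told apart.

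Values are log2 signals relative to the median probe of the same array, so 0 is the median probe. A spot was called well above background by the scanner software. Values below the dimmest such probe of an array, its floor, were raised to the floor for comparisons. Floors lay between −2.61 and −0.62. The injected nude nerve array was the dimmest, with a median signal of 23.5 against up to 122 elsewhere, and had the highest floor. Because probes differ in brightness, levels of different genes were not compared.

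The labelled tissues were checked against marker lists. Calca, Prph and Avil, made by sensory neurons, averaged 8.7, 7.1 and 5.5 in DRG. The myelinating Schwann cell list averaged 6.86 to 7.75 over the nerve arrays, 6.57 to 7.26 over DRG and 4.09 to 5.97 over cord, so it overlapped between nerve and DRG. Of 6 dorsal horn neuron genes tested, 5 were lower and 1, Pax2, higher in DRG than in cord. Slc32a1, of inhibitory neurons, averaged 6.31 in cord, 2.08 in nerve and 1.35 in DRG, and no nerve or DRG array detected Gad2. Mrgprd, which marks a class of nonpeptidergic nociceptors, was detected on none of the 12 arrays.

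The listed genes lie mostly in clusters of the rat genome (RefSeq annotation, assembly GRCr8). Scn3a (chr3:70554496-70666198), Scn1a (chr3:71360840-71479870) and Scn9a (chr3:71553185-71701377) lie on chromosome 3. Scn10a (chr8:128228424-128340749) is followed by Scn11a (chr8:128374441-128444718) on chromosome 8, where Scn2b (chr8:54322383-54334519) and Scn4b (chr8:54343873-54359046) are also neighbours. Scn8a (chr7:133860901-134034809) lies on chromosome 7.

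The 250 bases upstream of the annotated start are shown for 4 genes that represent the tissue patterns described next. Scn11a and Scn9a were highest in DRG, Scn4b was highest in cord and clear in DRG, and Scn3a was highest in cord. Sequences run 5′ to 3′ on the gene's strand (RefSeq, GRCr8). Capitals mark matches to TGTGGT, the core bound by RUNX factors, or to ATNNNTAAT, a string like the sites of POU4F factors, on either strand.
Scn11a, chr8:128444719-128444968, minus strand: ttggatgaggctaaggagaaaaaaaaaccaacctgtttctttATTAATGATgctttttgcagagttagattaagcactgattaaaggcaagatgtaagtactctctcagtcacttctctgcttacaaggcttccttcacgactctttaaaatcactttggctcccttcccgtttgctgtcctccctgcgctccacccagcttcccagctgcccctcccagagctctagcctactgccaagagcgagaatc
Scn9a, chr3:71701378-71701627, minus strand: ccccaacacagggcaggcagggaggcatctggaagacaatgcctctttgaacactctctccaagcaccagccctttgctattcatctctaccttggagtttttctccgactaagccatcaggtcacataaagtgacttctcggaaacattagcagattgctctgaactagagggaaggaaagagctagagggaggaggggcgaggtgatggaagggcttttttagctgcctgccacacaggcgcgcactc
Scn4b, chr8:54343623-54343872, plus strand: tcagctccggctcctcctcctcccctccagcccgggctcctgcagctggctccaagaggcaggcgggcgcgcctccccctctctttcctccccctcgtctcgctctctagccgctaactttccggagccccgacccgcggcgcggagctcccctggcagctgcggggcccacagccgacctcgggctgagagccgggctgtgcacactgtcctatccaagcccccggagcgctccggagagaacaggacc
Scn3a, chr3:70666199-70666448, minus strand: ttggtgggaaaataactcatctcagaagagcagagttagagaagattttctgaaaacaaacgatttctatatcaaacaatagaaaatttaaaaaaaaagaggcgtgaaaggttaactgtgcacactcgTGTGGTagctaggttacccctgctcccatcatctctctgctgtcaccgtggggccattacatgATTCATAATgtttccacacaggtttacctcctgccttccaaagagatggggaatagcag
The ATNNNTAAT string was present upstream of Scn11a and Scn3a, and TGTGGT upstream of Scn3a. Among 33469 RefSeq rat promoters of this length, 9.26% hold the first and 14.5% the second. The other strings searched on both strands were the TATA box (TATAAA, in 12.9% of all promoters), the CCAAT box (CCAAT, 34.0%), the GC box (GGGCGG, 30.5%) and the NRSF half-site (CAGCACC, 5.43%). None of them was in these 4 windows. The Scn4b window was 71.6% G+C with 21 CpG pairs, while the other 3 were 41.6% to 52.4% G+C with 4 or 5 CpG pairs. The median of all promoters was 51.2% G+C. A string match does not show that a factor binds there.

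The first comparisons asked in which tissue each channel was expressed. Of the 8 members, 6 were higher in DRG than in nerve and 1 was lower (limma, adjusted over all probes). Of all 19368 probes tested, 13.9% were higher and 34.1% lower in DRG. The median difference was 4.39 log2 units over the members and −0.23 over all probes. Against cord, 3 members were higher in DRG and 4 lower, where 28.2% and 32% of 19663 probes were called. The member median was −0.91, and that of all probes −0.04. Between cord and nerve, 6 members could be tested. Of these, 4 were higher and 1 lower in cord, with 28.2% and 38.7% of 19611 probes called. The medians were 3.06 for members and −0.17 for all probes. Detection limits these counts and medians. No member was well above background on all 4 nerve arrays, so all passed the filter through DRG or cord. The 5 members undetected on every nerve array could only come out higher against nerve, or be left without a value. The same holds for DRG against cord for the 2 members undetected in cord.

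The balance of all calls moved with the scaling of the arrays. Higher calls made up 28.9% of the calls between DRG and nerve, and 27.1% to 51.5% under the other scalings and corrections tried. The share was 46.8% between DRG and cord (25.1% to 58.4%) and 42.1% between cord and nerve (up to 58.1%). Cyclic loess moved the median of all probes between DRG and nerve from −0.23 to 0.01. The median between DRG and cord ran from −0.21 (normexp) to 0.14 (75th percentile), and that between cord and nerve reached 0.07 (normexp).

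**Figure D1:**
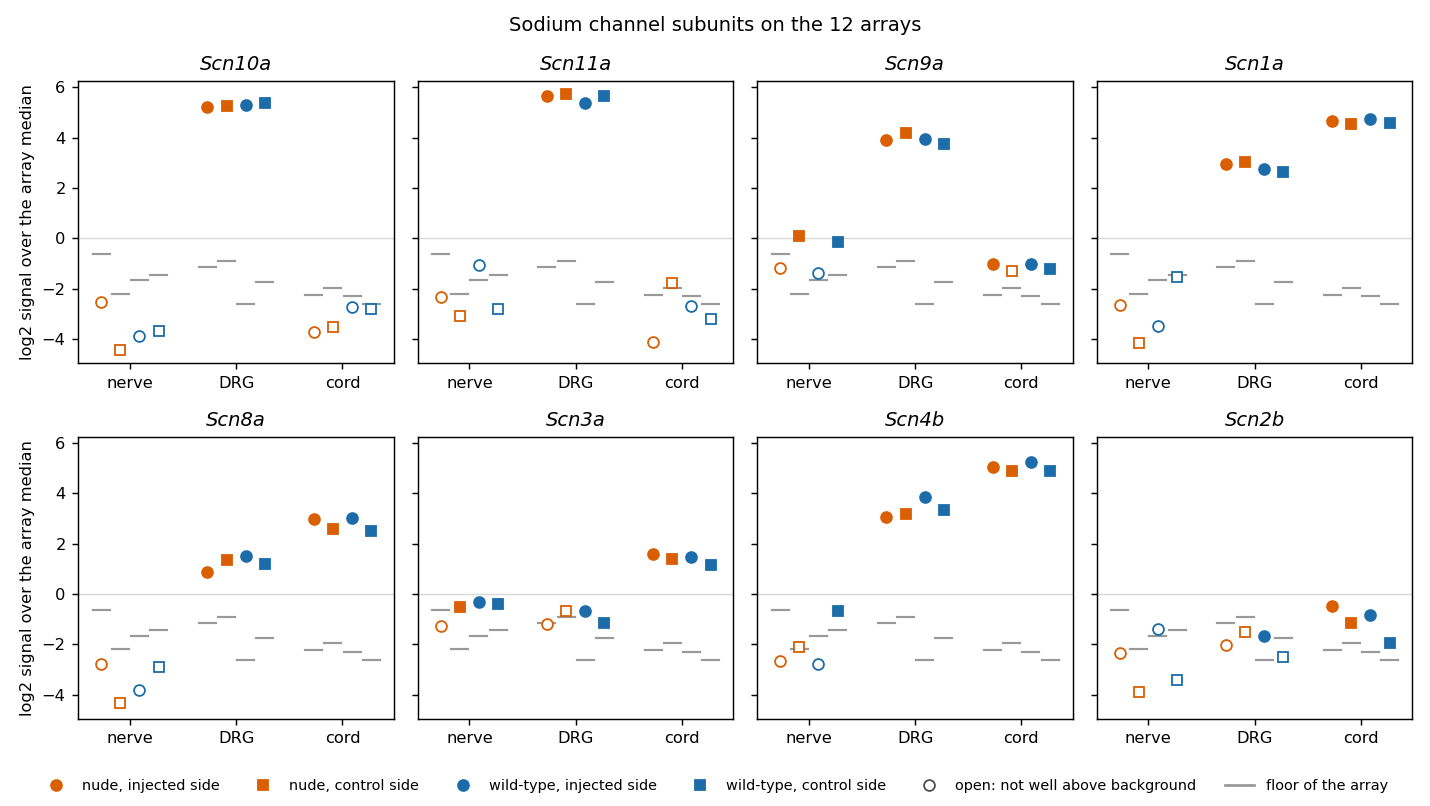
Log2 signal over the array median (vertical axis) of the 8 sodium channel probes on the 12 arrays, by tissue. Colour gives the rat type, shape the side, open symbols are not well above background and grey lines are the array floors. Scn10a and Scn11a stand above 5 on all 4 DRG arrays and are open symbols on all nerve and cord arrays.

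Scn10a and Scn11a, which encode the tetrodotoxin-resistant channels Nav1.8 and Nav1.9 of nociceptors, were well above background in DRG alone. Scn10a measured 5.24 and 5.27 in injected-side and control-side DRG of nude rats, and 5.31 and 5.38 in wild-type rats. The 4 values lay within a narrow band, and all nerve and cord values lay below −2.5 and not well above background. Scn10a was at least 109.6-fold higher in DRG than in nerve (log2 difference at least 6.78 ± 0.16, SE, 2 pooled samples per tissue, limma adjusted p = 1.47e-05). Against cord it was at least 190.0-fold higher (at least 7.57, limma adjusted p = 1.78e-05). Such a bound replaces the undetected tissue by its array floors.

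Scn11a measured 5.65 and 5.75 in nude DRG (injected, control) and 5.37 and 5.65 in wild-type DRG. No DRG value came near those of nerve and cord, which ran from −4.12 to −1.07 and were all below the detection call. The gene was at least 122-fold higher in DRG than in nerve (limma adjusted p = 1.47e-05) and at least 227-fold higher than in cord (limma adjusted p = 1.78e-05). Both rat types gave similar bounds, 7.11 and 6.76 log2 units in nude and wild-type rats against nerve. No value was given for Scn10a or Scn11a between cord and nerve, since neither tissue was well above background.

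Scn9a, which encodes Nav1.7, the threshold channel whose loss abolishes pain in people, was also highest in DRG but was measured in the other tissues. DRG values were 3.90 and 4.21 in nude and 3.95 and 3.74 in wild-type rats (injected, control). The control nerves gave 0.09 and −0.12 and were well above background, while the injected nerves gave −1.17 and −1.38 and were not. Cord values lay between −1.28 and −1.02, with 3 of 4 arrays well above background. DRG thus did not overlap with either tissue. Scn9a was 21.9-fold higher in DRG than in nerve (4.46 ± 0.17 log2 units, limma adjusted p = 2.68e-05), with the injected nude nerve held at its floor. Against cord the difference was 33.7-fold (5.08 ± 0.17, limma adjusted p = 2.28e-05).

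Cord and nerve overlapped for Scn9a. The fitted difference, cord minus nerve, was −0.62 ± 0.17 (limma adjusted p = 0.0175). With the injected-side arrays alone it was −0.02, and without the wild-type control nerve it was −0.30 (limma adjusted p = 0.391).

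Scn1a, Scn8a and Scn4b shared another pattern, highest in cord, lower in DRG and mostly undetected in nerve. Scn1a encodes Nav1.1 of inhibitory and myelinated sensory neurons. It measured 4.65, 4.55, 4.74 and 4.58 in cord (injected and control nude, then wild-type) and 2.97, 3.05, 2.77 and 2.62 in DRG. The tissues did not overlap, and no nerve array was well above background. Scn1a was 3.43-fold lower in DRG than in cord (−1.78 ± 0.15, limma adjusted p = 0.000239). It was at least 20.1-fold higher in DRG than in nerve (limma adjusted p = 2.41e-05).

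Scn8a encodes Nav1.6, the main channel of mature nodes of Ranvier. Its cord values were 3.00, 2.60, 3.04 and 2.49, and its DRG values 0.86, 1.34, 1.49 and 1.19, in the same order. The lowest cord value stood about 1 log2 unit above the highest DRG value, and Scn8a was undetected on the 4 nerve arrays. The gene was 2.94-fold lower in DRG than in cord (−1.56 ± 0.15, limma adjusted p = 0.000418). It was at least 6.50-fold higher in DRG than in nerve (limma adjusted p = 7.73e-05) and at least 19.1-fold higher in cord than in nerve (limma adjusted p = 4.86e-06).

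Scn4b encodes the beta4 subunit, whose intracellular end can act as the open-channel blocker behind resurgent current. Its cord values were 5.05, 4.89, 5.26 and 4.88, against 3.04, 3.19, 3.87 and 3.34 in DRG. All cord values exceeded all DRG values, and in nerve the wild-type control array alone was well above background. Scn4b was 3.15-fold lower in DRG than in cord (−1.66 ± 0.15, limma adjusted p = 0.000338) and 24.8-fold higher in DRG than in nerve (4.63 ± 0.15, limma adjusted p = 2.25e-05). Between cord and nerve the fold was 78.0 (limma adjusted p = 3.22e-06). Both folds rest on nerve values raised to the floors and are lower bounds, since the measured means were −2.05 in nerve, 3.36 in DRG and 5.02 in cord.

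Scn3a encodes Nav1.3, which is abundant in the embryonic nervous system and is known to return in axotomized sensory neurons. It measured 1.58, 1.41, 1.48 and 1.17 in cord. The DRG values were −1.20, −0.66, −0.69 and −1.15, and the nerve values −1.27, −0.50, −0.30 and −0.40. Cord stood apart, while DRG and nerve overlapped. Cord was 4.97-fold above DRG (DRG minus cord −2.31 ± 0.15, limma adjusted p = 9.53e-05) and 3.64-fold above nerve (1.86 ± 0.15, limma adjusted p = 9.95e-05). The measured means were −0.92 in DRG and −0.62 in nerve, with 2 and 3 of 4 arrays well above background. For the test the injected nude nerve was raised to its floor, which widened the gap. DRG was then lower than nerve by a small margin (−0.45 ± 0.15, limma adjusted p = 0.0496). This call was lost when any 1 nerve array, the injected nude or control wild-type DRG, or the control nude or injected wild-type cord was left out, with differences from −0.48 to −0.33.

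Scn2b encodes the beta2 subunit, which is linked to the alpha subunit by a disulphide bond. It was well above background on all 4 cord arrays, at −0.47, −1.15, −0.82 and −1.94, on 1 DRG array and on no nerve array. Its values lay close to the floors. DRG and cord were not distinguished (−0.26, 95% confidence interval −0.74 to 0.22, limma adjusted p = 0.284). Undetected DRG values were raised to floors there, which narrowed the gap (measured means −1.93 in DRG and −1.10 in cord). Cord and nerve were not distinguished either (at least 0.32 ± 0.20, limma adjusted p = 0.197). The same held for DRG and nerve (at least 0.05 ± 0.20, limma adjusted p = 0.84), a value that mostly compares floors (measured means −1.93 and −2.76).

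**Figure D2:**
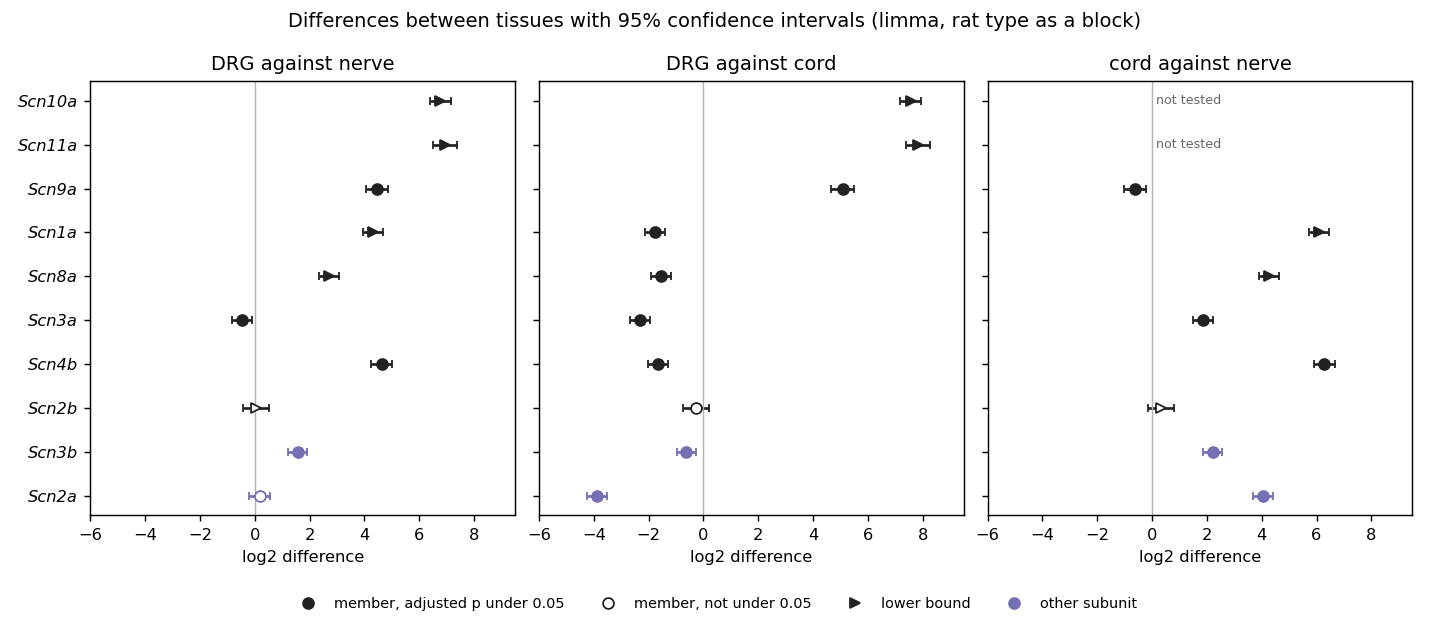
Log2 differences between tissues for each sodium channel gene, with 95% confidence intervals from limma on 6 values (2 rat types in 3 tissues). Triangles are lower bounds, open symbols did not pass the test and purple marks other subunits. Scn10a, Scn11a and Scn9a lie far to the DRG side against nerve and cord, while Scn1a, Scn8a, Scn4b and Scn3a lie to the cord side of the DRG and cord comparison.

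The patterns can be described by how the probes moved together over the 12 arrays, which share tissues and so are not independent. Values below an array's floor entered at the floor, so probes undetected on the same arrays share those values. Scn10a and Cst12, for example, had the same means in nerve (−1.48) and in cord (−2.27). The r values therefore rest in part on shared floors. Pearson's r was 0.999 between Scn10a and Scn11a. The other probes most like Scn10a were those of Cst12 (0.993) and Isl1 (0.992), the latter a sensory neuron transcription factor. Scn9a was closest to Ppp1r1c (0.986). Scn1a was closest to Plppr4 (0.998), Scn8a to Samd14 (0.997), Scn4b to Rit2 (0.998) and Scn3a to Camkk1 (0.988).

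The next comparisons asked whether the peptide changed channel expression on the injected side. In nerve, 3 members could be tested and 1, Scn9a, was lower on the injected side. Scn9a passed the filter through the control arrays alone, so it could hardly have come out higher on the injected side. Of all 20255 probes tested, 13.9% were called in either direction. The difference of Scn9a, injected minus control, was −0.98 ± 0.22 log2 units (95% confidence interval −1.49 to −0.48, limma adjusted p = 0.0222). It was at least 2.39-fold lower in wild-type rats and at least 1.63-fold lower in nude rats, and the injected and control arrays did not overlap.

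The Scn9a call was lost under 6 of the 12 alternatives in which the gene was tested, where the difference ran from −0.98 to −0.25 and the adjusted p from limma or the methods' t-test reached 0.46. The mean of the Schwann cell myelin genes was also lower in the injected nerves, 6.86 and 6.99 against 7.74 and 7.75 in controls. That of adipocyte markers was 3.15 and 2.80 against 4.31 and 4.48. The sensory neuron list averaged 0.10 and −0.16 against 0.16 and 0.23. In nude nerve, 4 of its 12 genes were well above background on the injected side and 11 on the control side. The counts in wild-type nerve were 7 and 8. The nude injected mean of 0.10 therefore rests largely on the floor of that array. The part of these lists in the Scn9a value was not tested. Scn3a differed little between sides (−0.01 ± 0.24, limma adjusted p = 0.986).

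In the wild-type nerve pair, 4.04% of 19071 probes were 2-fold or more higher and 3.73% lower. With 1 array per side, no test was possible there, and Scn9a was the 1 member of 3 past that fold. In nude nerve, no member passed 2-fold, where 9.22% and 11% of 17371 probes did. Scn4b was well above background in the wild-type control nerve alone, at least 1.98-fold above the injected one.

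In DRG, none of the 8 members passed the test, and neither did any of 21830 probes (0%). At an unadjusted p under 0.05, limma called 257 probes (1.18%) and 0 members. The methods' t-test called 440 probes unadjusted and 0 after adjustment. The nociceptor channels were near equal between sides: Scn10a at −0.05 (95% confidence interval −0.99 to 0.88), and Scn9a at −0.05 (−0.58 to 0.49). Scn11a was lower on the injected side in both pairs, by 0.28 log2 units in wild-type and 0.10 in nude rats, which did not pass the test (limma adjusted p = 1.00).

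Intervals for the other members also held 0. Scn4b gave 0.19 (−1.02 to 1.40), with 0.54 in wild-type and −0.15 in nude rats. Scn8a gave 0.30 and −0.49 in the same order. No member reached 2-fold in either rat type, where 0.597% and 0.72% of 20421 wild-type probes were higher and lower, and 0.818% and 0.482% of 17840 nude probes. The number of arrays limits these comparisons, and the interval of Scn4b spans more than 2-fold in both directions.

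In cord, 13 of 21407 probes (0.0607%) and none of the 6 tested members passed. All 6 had positive differences, injected lumbar level minus control level, in both rat types (that of Scn9a in nude rats is a bound), with a member median of 0.25 against −0.04 for all probes. The share of all probes positive in both rat types is not given, so these signs are not shown to be particular to sodium channels. Scn2b differed most, at 0.90 ± 0.35 (95% confidence interval 0.06 to 1.74, limma unadjusted p = 0.039, adjusted p = 1.00), where 4.59% of all probes had an unadjusted p under 0.05. Its values were −0.47 against −1.15 in nude and −0.82 against −1.94 in wild-type rats. The wild-type pair was 2.17-fold apart, the 1 member past 2-fold, where 0.859% of 20961 probes were higher and 0.73% lower.

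In nude cord no member passed 2-fold, where 0.939% and 0.735% of 20126 probes did. Scn8a followed Scn2b, at 0.55 in wild-type and 0.40 in nude rats. The mean of the myelinating Schwann cell list was also higher in these samples, 5.71 against 4.53 in nude and 5.97 against 4.09 in wild-type cord. The dorsal horn neuron list was 3.83 against 3.64 and 3.93 against 3.44. Their part was not tested, and spinal level and peptide cannot be told apart.

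**Figure D3:**
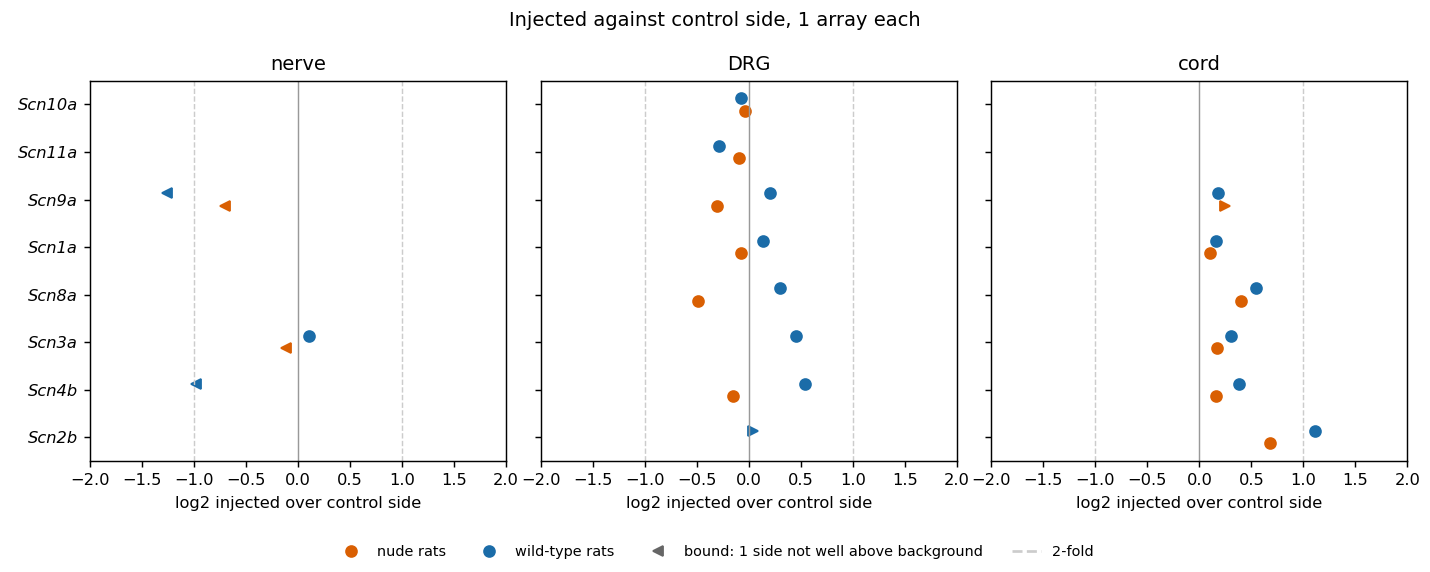
Log2 injected-side over control-side difference of each sodium channel gene in the 3 tissues, for wild-type and nude rats separately. Triangles are bounds where 1 side was not well above background, and dashed lines mark 2-fold. Scn9a lies below 0 in nerve in both rat types, DRG values lie within 0.54 of 0, and all cord values lie above 0.

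Wild-type and nude rats were close for the members measured in both. On control-side DRG, wild-type minus nude values of 6 members ran from −0.47 to 0.14 log2 units, and on the injected side from −0.28 to 0.83, the latter for Scn4b. No member differed by 2-fold, where 2.91% (control side) and 6.03% (injected side) of all probes did. In cord the members ran from −0.79 to 0.22, again with none at 2-fold, against 1.13% and 1.76% of probes on the control and injected sides. In control nerve Scn3a and Scn9a lay between −0.21 and 0.09, where 3.6% of probes reached 2-fold.

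Other sodium channel subunits gave a wider view of the family. Scn3b, the beta3 subunit known to raise surface levels of Nav1.8, was well above background on all 12 arrays. In injected nerve it measured 2.82 (nude) and 3.46 (wild-type), and in control nerve 1.95 and 1.46. The sides did not overlap, and the difference passed the test (1.44 ± 0.27, limma adjusted p = 0.0120), at 1.83-fold in nude and 4.01-fold in wild-type rats. With normexp background correction, or with the methods' t-test after adjustment, 0 probes were called between the nerve sides, so this call and the list calls in nerve given next end there. The macrophage list averaged 4.90 and 5.40 in injected against 4.88 and 4.66 in control nerve (nude, wild-type), and the skeletal muscle list 0.09 and 3.18 against 0.43 and 1.29, and their part in the Scn3b value was not tested.

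Between tissues, Scn3b was 2.98-fold higher in DRG than in nerve (limma adjusted p = 0.000463). Scn2a and Scn3b were lower in DRG than in cord (−3.88 and −0.63, limma adjusted p = 2.82e-05 and 0.0103). Scn2a encodes Nav1.2 of central neurons. It was well above background on all 4 cord arrays and on 1 array each of nerve and DRG. Scn4a, the muscle channel, was well above background on 1 DRG array alone.

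Proteins that place and tune sodium channels were followed through lists. Of 16 channel partners tested, 8 were higher and 4 lower in DRG than in nerve, with a median of 0.16 (all probes 13.9% higher, 34.1% lower, median −0.23). Against cord, 4 were higher and 6 lower, with a median of −0.32 (all probes 28.2% higher, 32% lower, median −0.04). Fgf13, a fibroblast growth factor homologue that binds the sodium channel tail, was 6.72 log2 units higher in DRG than in nerve and 1.51 higher than in cord. S100a10, which carries Nav1.8 to the membrane, was 3.60 higher in DRG than in cord, while Pak1, a kinase, was 2.12 lower (DRG minus cord −2.12). The mean of S100a10 was 9.84 in DRG and 9.93 in nerve, so it did not set DRG apart from nerve. Beside the same shares of all probes, of 14 scaffold genes of the node and initial segment, 6 were higher and 1 lower in DRG than in nerve (median 0.12), and 2 higher and 10 lower against cord (median −1.67).

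In injected nerve, 3 of 9 scaffold genes tested were lower and 0 higher, with a list median of −0.63 against −0.04 for all probes, of which 13.9% were called in either direction. They were Cntn2 (−1.37, limma adjusted p = 0.0060), Ank3 (−0.72, limma adjusted p = 0.0399) and Sptan1 (−0.67, limma adjusted p = 0.0444). Ank3 and Sptan1 were well above background on all 4 nerve arrays. Cntn2 was so on 2 of 4, the control arrays alone, and its difference rests in part on floors. It could hardly have come out higher on the injected side. Cntn2 holds potassium channels beside the node, and Ank3 encodes ankyrin G, the anchor of nodal sodium channels.

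Potassium channels of the node and axon were higher in DRG than in nerve for 7 of 9 tested and lower for 0 (median 1.46). Of all probes, 13.9% were higher and 34.1% lower (median −0.23). Against cord, 2 of 10 were higher and 4 lower in DRG (median −0.32), where 28.2% and 32% of all probes were called (median −0.04). Of 6 potassium channel genes tested between the nerve sides, 3 were lower on the injected side and 1 higher, where 13.9% of all probes were called. Kcna1 and Kcna2, the channels beside the node, gave −1.39 and −1.03 (limma adjusted p = 0.0060 and 0.010). Sensory neuron markers were higher in DRG than in nerve for 10 of 11 tested (median 4.88), where 13.9% of all probes were higher. Between the nerve sides, 3 of 11 were lower, among them Ret (−1.15) and Prph, and 1, Avil, was higher (1.69). Of all probes, 13.9% were called there in either direction. Ret was well above background on 2 of 4 nerve arrays, Avil on 3 and Prph on 4. The 2 arrays of Ret were the control ones, so Ret could hardly have come out higher on the injected side. In DRG no gene of these lists passed between sides.

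**Figure D4:**
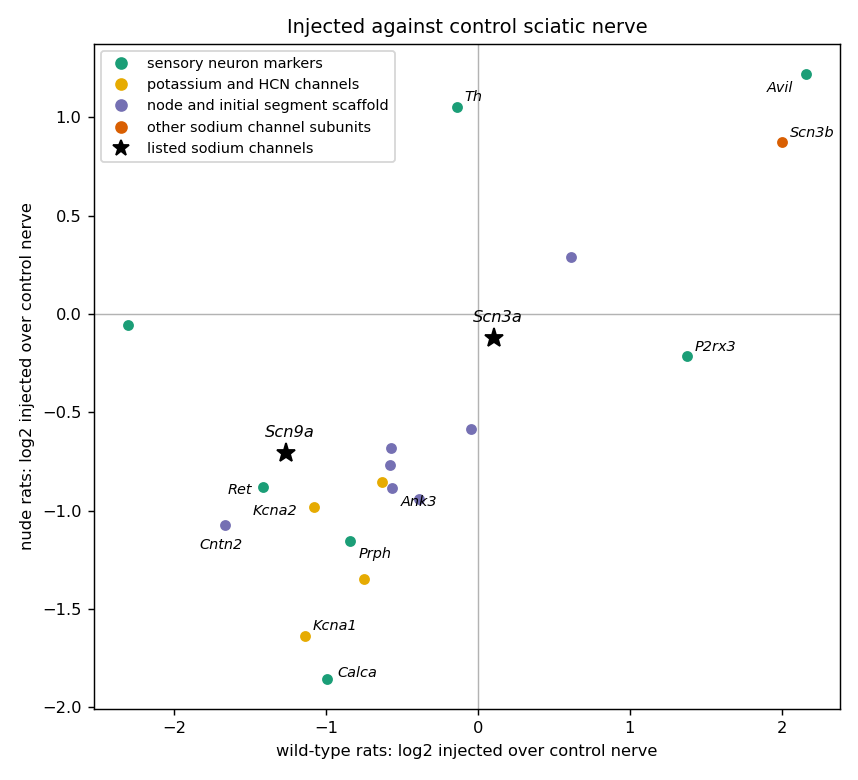
Log2 injected over control nerve difference of genes of 5 lists with a value in both rat types, wild-type on the horizontal and nude on the vertical axis. Some values are bounds, where 1 side was not well above background, and are not marked. Both values of Scn9a, Cntn2 and Ret are such bounds. These genes were well above background in the control nerves alone, so their values could only lie below 0 or be left out. Scn9a lies with Kcna2, Cntn2 and Ret below 0 on both axes, and Scn3b and Avil lie above 0 on both.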

How the data were processed

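RNA of the 12 pooled samples was hybridised to Agilent rat one-colour arrays. The deposited scanner tables hold each spot's processed signal, an intensity the authors obtained with Agilent Feature Extraction (version 10.5 per the labels), already corrected for background. The deposited value table holds log2 values normalized by the authors, with column medians that are nearly equal, and served as an alternative.

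Outlier spots were dropped, log2 intensities of a probe's spots averaged (2 spots for 7 members, 10 for Scn4b), the array median subtracted and values raised to the array's floor. A probe was well above background when more than 0.5 of its spots were. Array precision is limited by the number of arrays, 1 per group. Tissues were compared with limma (version 3.58.1, R 4.3.3) on the mean of both sides per rat type (6 values), with rat type as a block and 2 residual degrees of freedom. Sides were compared on the 12 arrays within each tissue and rat type (3 residual degrees of freedom). Probes had to be well above background on all 4 arrays of 1 tissue (tissue comparisons) or on at least 1 array of the tissue (side comparisons). P-values were adjusted by Benjamini-Hochberg over all probes at 0.05, and with 1 array per side a 2-fold threshold was used. Since pools are few, p-values measure the spread between these samples only. Genes named were the members, the genes of the lists past the threshold and, for likeness, the 3 probes of highest r.

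Alternatives were other scalings (75th percentile, quantile, cyclic loess, the authors' values), normexp with an offset of 50, no floor, other filters, other designs, each array left out and the methods' t-test. Scripts were tested on simulated data. Some genes of the lists are not reported here. Members and lists were chosen with earlier results of these data known.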

Additional observations from a re-analysis of the deposited data

Results flagged for a closer look

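In DRG, the injected minus control difference was positive in wild-type rats and negative in nude rats for 4 of the 6 sodium channel genes well above background on all 4 DRG arrays. Scn3a and Scn2b had the same signs but were not well above background in nude DRG. The gap between rat types, wild-type minus nude, was 0.79 log2 units for Scn8a (0.30 and −0.49), 0.69 for Scn4b (0.54 and −0.15), 0.51 for Scn9a (0.21 and −0.31) and 0.22 for Scn1a (0.14 and −0.08). With 1 array per side and rat type, these differences were not tested, and rat type, day and slide cannot be told apart. The share of all probes with these signs is not given, so the pattern is not shown to be particular to sodium channels.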

How the results depend on the processing

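No paired analysis was possible because each group held 1 array, beyond the pairing of both sides of 1 rat type and tissue that the side comparisons already contain. Leaving out rat type as the block of the tissue comparisons (no replicate block) left the members called at 7, 7 and 5 for DRG against nerve, DRG against cord and cord against nerve. Leaving out each array in turn gave 6 to 7, 7 to 7 and 4 to 6. A filter asking for all 12 arrays left 0 members in each, since no member was well above background on all of them. The methods' t-test called 3 members between DRG and nerve. Of the injected-side comparisons over both rat types, the 1 nerve member (Scn9a) became 0 under the 75th percentile, normexp, 1 common floor for all arrays (chosen after seeing the data), no filter, detection on every array of the tissue (which left Scn9a untested), the 4 nerve arrays alone and the methods' t-test. Wild-type nerve, with 1 member past 2-fold, gave 0 with normexp, the common floor, detection on both arrays or a 3-fold threshold, and 2 with no floor. Wild-type cord, with 1, gave 0 with normexp, the common floor or 3-fold. Nude nerve, with 0, gave 1 with cyclic loess or no floor and 6 with no filter. No member difference called by the tests reversed. Between DRG and nerve, higher and lower probes numbered 2685 and 6601, but 429 and 588 by the methods' t-test and 4100 higher by cyclic loess. Injected nerve had 989 higher and 1826 lower probes, but 0 and 0 with normexp, and higher calls were 35.1% of the total, but 53.3% under the 75th percentile. In cord between sides the common floor gave 65 higher and 54 lower probes in place of 13 and 0. The cause of these shifts was not tested. The floor of the dim injected nude nerve array limits what could be measured in nerve.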
